A study of Mus musculus with 13 samples.

Results

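The peaks described here are the whole binding list of Gli3 in neural progenitors made without a Smoothened agonist. All 1888 lines of the deposited Gli3 list were taken, out of 23280 peaks in the 4 lists of the series. Of these, 1862 lie on the 19 autosomes, 14 on chromosome X and 12 on chromosome Y, and the results below use the autosomal peaks. The cells were derived from mouse embryonic stem cells over 2 days in suspension and 3 further days with 500 nM retinoic acid, in medium to which no agonist was added, and the submitters call them dorsal. Their line came from V6.5 (C57BL/6 X 129/sv) and carried a 3xFLAG-Avi tag inserted at the Gli3 initiation codon, and chromatin was precipitated with the M2 antibody against FLAG. The list rests on 1 ChIP library and its 1 input, so no value below has a replicate. Intervals of shares are 95% Wilson intervals. Those of differences combine the Wilson limits of both shares, and that of the median comes from the ordered distances by the binomial distribution. All cover counting error only.

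For comparison, the series holds lists for Nkx2.2, Nkx6.1 and Olig2 from progenitors that received the same retinoic acid together with 160 to 800 nM of the agonist (SAG), the ventral cultures. Those came from YFP3.1 embryonic stem cells (a mix of Swiss Webster, C57BL6/J and 129 Sv) or from a Rosa26-Gli1FLAG derivative of them. Factor, antibody, culture and cell line therefore all differ between the Gli3 list and the ventral lists and cannot be told apart. The dorsal character of the Gli3 culture was not checked here, as peak positions carry no expression of marker genes.

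Gli3 is a zinc-finger transcription factor of the Gli family, which carries Hedgehog signals to the genome. Without Hedgehog signal it is cut to a shorter form that represses target genes, and activation of Smoothened, which an agonist imitates, prevents this cut. The repressor keeps the amino-terminal part of the protein, so a tag at the start codon marks both the full-length protein and the repressor. In the neural tube Gli3 repressor is known for holding back ventral genes in dorsal cells, and genes such as Ptch1, Gli1 and Hhip are textbook targets of Gli factors. Nkx2.2 and Nkx6.1 are homeodomain factors and Olig2 is a basic helix-loop-helix factor, and all 3 pattern the ventral progenitor domains. Positions are given on mm9, 1-based. Which genes lie at them, and the sequences under the peaks, were not analysed here, since no annotation or genome of that build was used.

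The lines of the Gli3 list are not in genome order. Of 1887 pairs of adjacent lines, 122 are on the same chromosome, and in 62 of these the second line lies further along it. The list carries no score and no coverage of Gli3 was used here, so whether its lines run from stronger to weaker peaks was not tested. Its order is used below only as an order. For this the autosomal lines were divided into 4 equal stretches of 465 or 466 peaks, and for a finer view into 10 equal segments of 186 or 187 peaks.

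Gli3 peaks near the start of the list shared sites with ventral factors more often than those near its end. In the first stretch of the list, 224 of 466 peaks (48.1%, 43.6 to 52.6) shared at least 1 bp with a peak of Nkx2.2, Nkx6.1 or Olig2. The share was 39.8% (35.4 to 44.3) in the second stretch, 33.3% (29.1 to 37.7) in the third and 25.6% (21.8 to 29.8; 119 of 465) in the last. Over all autosomal Gli3 peaks it was 36.7% (34.5 to 38.9; 683 of 1862). Gli3 peaks that met all 3 ventral factors numbered 34, 22, 6 and 4 from the first stretch to the last. These made up 7.30% (5.27 to 10.0), 4.73%, 1.29% and 0.86% (0.335 to 2.19) of their stretches, against 3.545% (66 of 1862) over all.

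The decline of this overlap down the Gli3 list was larger in percentage points for Olig2 than for Nkx2.2. For Olig2, 33.9% (29.8 to 38.3) of the first stretch and 8.17% (6.01 to 11.0) of the last overlapped, a difference of 25.7 percentage points (20.7 to 30.7). By segments the Olig2 share went from 37.97% (71 of 187) to 3.76% (7 of 186). For Nkx6.1, the shares of the first and last stretch were 13.95% (11.1 to 17.4) and 2.80% (1.64 to 4.72), a difference of 11.2 points (7.71 to 14.8). For Nkx2.2 they were 25.8% (22.0 to 29.9) and 19.8% (16.4 to 23.7), a difference of 6.0 points (0.576 to 11.3). The interval for Nkx2.2 lies wholly below that for Olig2 but overlaps that for Nkx6.1. A difference in points also depends on the share in the first stretch, which was lowest for Nkx6.1. In the first segment of the list more Gli3 peaks met Olig2 (71) than Nkx2.2 (48), and in the last segment more met Nkx2.2 (31) than Olig2 (7). Peaks of 1 library are not replicates, so these intervals say nothing of how another culture would order its peaks.

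**Figure D1:**
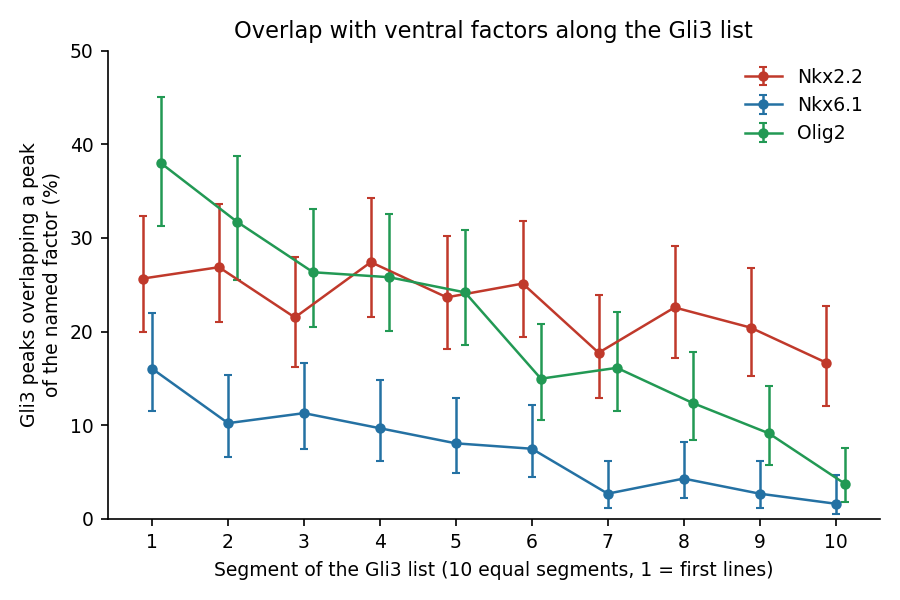
Share of autosomal Gli3 peaks (%) that share at least 1 bp with a peak of Nkx2.2, Nkx6.1 or Olig2, by segment of the Gli3 list (10 segments of 186 or 187 peaks); bars are 95% Wilson intervals. Olig2 goes from 37.97% to 3.76% and Nkx6.1 from 16.0% to 1.61%, while Nkx2.2 goes from 25.7% to 16.7%.

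The overlapped Nkx2.2 peaks also changed along the Gli3 list. Those met by Gli3 peaks of the first stretch had a median place 48.7% of the way down the Nkx2.2 list (120 peaks, quartiles 24.1 and 69.8). Those met by the second stretch stood at 50.5% (113 peaks). Those met by the third and last stretches stood at 67.3% (99 peaks, quartiles 47.88 and 81.95) and 64.3% (92 peaks, quartiles 40.9 and 87.1). By median, the late Gli3 peaks thus met Nkx2.2 peaks that stand later in their own list, which is not in genome order either. The quartile ranges overlap widely, and the median did not rise from the third stretch to the last. For Olig2 the median place of the overlapped peaks was 35.1%, 42.5%, 34.8% and 41.6% over the 4 stretches, with no steady course. Seen from the other side, Gli3 lay at 5.45% (3.84 to 7.67) of the first of 10 equal segments of the Nkx2.2 list and 10.2% (7.92 to 13.0) of the last. It lay at 5.89% (4.67 to 7.40) of the first segment of the Olig2 list and between 2.08% and 3.81% of the later ones. The Nkx2.2 list therefore met Gli3 more often in its last segment than in its first, and the Olig2 list more often in its first than in any later one.

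Over all Gli3 peaks, overlapping ones included, the median distance to the nearest Olig2 peak was 7.48 kb in the first stretch, 26.3 kb in the second, 42.0 kb in the third and 52.0 kb in the last. Among Gli3 peaks that did not overlap Olig2 the medians were 32.9, 50.6, 60.8 and 62.0 kb in the same order, a narrower range than over all peaks. Among peaks that did not overlap Nkx6.1 they were 149.5, 193.8, 192.6 and 210.3 kb, and among those that did not overlap Nkx2.2 they were 66.5, 77.2, 87.0 and 80.7 kb. Gli3 peaks without any overlap but with a ventral centre within 10 kb made up 20.2% (16.8 to 24.1; 94 of 466) of the first stretch. In the last stretch they made up 23.2% (19.6 to 27.3; 108 of 465). Both are shares of all peaks in the stretch, and peaks without overlap were more numerous in the last. They therefore do not give the course among peaks without overlap alone. Gli3 peaks with no ventral peak centre within 100 kb made up 4.29% (2.80 to 6.54) of the first stretch and 11.4% (8.82 to 14.6) of the last.

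The first 5 and last 5 autosomal lines were named by rule and are examples, not a measure of this course. In the first of 10 segments, 94 of 187 peaks (50.3%, 43.2 to 57.4) met at least 1 ventral factor. In the last segment 38 of 186 (20.4%, 15.3 to 26.8) did, so most lines there met none. Line 1 was the peak at chr7:146714658-146714957, whose centre lay 22 bp from an Nkx6.1 centre and 35 bp from an Olig2 centre. Line 2, at chr15:62302265-62302564, met all 3 ventral factors, at 45 bp for Nkx2.2, 120 bp for Nkx6.1 and 148 bp for Olig2. Lines 4 and 5, at chr16:29720164-29720463 and chr15:85491255-85491554, met 2 and 1 of them. Line 3, at chr7:146485378-146485677, met none, and its nearest ventral peak was one of Olig2 at 16574 bp. All 5 of the last autosomal lines met none. They lay at chr1:173032520-173032819, chr11:103221691-103221990, chr12:109681515-109681814, chr6:91360895-91361194 and chr11:120051100-120051399. The nearest ventral centre to any of them was an Olig2 peak 1235 bp from the peak on chromosome 12.

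Spacing within the Gli3 list was uneven, with tight groups of peaks and long gaps. Autosomal Gli3 peaks were on average 1254 kb apart, and the median distance from a peak to its nearest Gli3 neighbour was 139.8 kb (95% interval 128.9 to 160.0). The lower and upper quartiles of this distance were 32.1 and 507.5 kb. At the same density, peaks spread evenly would have a median of 434.7 kb, which follows from the mean spacing alone. The observed median was 0.322 times that value for Gli3, 0.49 times for Nkx2.2, 0.532 times for Nkx6.1 and 0.518 times for Olig2. The lists were not matched for length and the Gli3 list is the shortest, so these values do not rank the lists by crowding. Without chromosome 8, which holds more Gli3 peaks than any other autosome, the Gli3 median was 166.0 kb. Among the first 944 lines alone it was 342.2 kb, with fewer peaks left as neighbours. How much of this change comes from the shorter list was not tested, and no even-spread value was computed for either subset.

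Close pairs made up much of this crowding. Of the 1862 autosomal Gli3 peaks, 182 (9.77%, 8.51 to 11.2) had a neighbour within 1 kb and 330 (17.7%, 16.1 to 19.5) within 10 kb. The Nkx2.2 list, with 5508 autosomal peaks, had almost the same shares, 9.66% (8.91 to 10.5) and 18.5% (17.5 to 19.5). The Nkx6.1 list had 5.84% (5.16 to 6.60) and 14.9% (13.8 to 16.0), and the longer Olig2 list 9.10% (8.58 to 9.63) and 27.3% (26.5 to 28.1). These lists differ in density, and an even spread would put 1.58% of Gli3 peaks within 10 kb of a neighbour, and 4.49%, 3.34% and 9.20% in the Nkx2.2, Nkx6.1 and Olig2 lists. The observed share was 11.2 times that value for Gli3, 4.11 times for Nkx2.2, 4.45 times for Nkx6.1 and 2.96 times for Olig2. This ratio goes up as a list gets shorter, and the Gli3 list is the shortest, so it does not rank the lists by crowding. Among 1843 distances between neighbouring Gli3 peaks, 25 were under 300 bp, so that the 2 peaks overlapped, 49 lay between 300 and 600 bp and 21 between 600 and 1000 bp. Between 10 and 20 kb there were 34. The closest pair, at chr8:83403726-83404025 and chr8:83403911-83404210, was 185 bp apart from centre to centre. The widest gap, 25432949 bp, lay on chromosome 1 between chr1:95374806-95375105 and chr1:120807755-120808054.

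**Figure D2:**
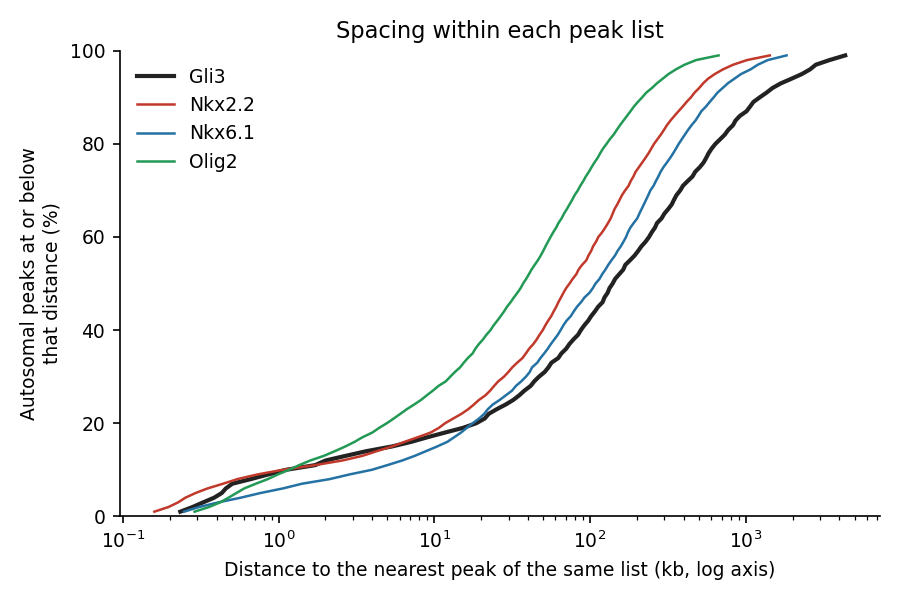
Cumulative share of autosomal peaks (%) by the distance to the nearest peak of the same list (kb, log axis), for the Gli3, Nkx2.2, Nkx6.1 and Olig2 lists. At 10 kb the Gli3 curve stands close to that of Nkx2.2 (17.7% and 18.5% of peaks), and beyond 100 kb it lies to the right of all 3 others.

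Crowding showed no steady course along the list. The share of Gli3 peaks with a neighbour within 10 kb was 19.7% (16.4 to 23.6) in the first stretch, 17.0% (13.9 to 20.7) in the second, 19.1% (15.8 to 22.9) in the third and 15.1% (12.1 to 18.6) in the last. The median distance to the nearest Gli3 peak lay between 132.0 and 144.5 kb in all 4 stretches. Distance in the list did not grow steadily with distance on the chromosome. Pairs under 1 kb apart stood a median of 22.7% of the list apart (95 pairs), and neighbours 100 kb to 1 Mb apart stood 30.0% apart (791 pairs), but those 1 Mb or more apart stood 26.3% apart (564 pairs).

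Chained wherever neighbouring centres lay within 10 kb, the Gli3 peaks formed 146 clusters with 330 peaks, and 1532 peaks stood alone. Of these clusters, 119 held 2 peaks, 20 held 3, 5 held 4, 1 held 5 and 1 held 7. The median cluster spanned 1713 bp. Clustered peaks met ventral factors about as often as single ones, at 34.5% (29.6 to 39.8) and 37.1% (34.8 to 39.6). By factor, the shares of clustered and single peaks were 20% and 23.4% for Nkx2.2, 8.49% and 7.18% for Nkx6.1, and 21.2% and 20.04% for Olig2, with overlapping intervals in each. In 80 of the 146 clusters (54.8%) at least 1 Gli3 peak overlapped a ventral peak, and in 24 clusters every Gli3 peak did. A cluster holds 2 or more peaks that can overlap, so the 54.8% cannot be set against the shares per peak.

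The largest cluster, on chromosome 13 at 63655865 to 63674919, held 7 Gli3 peaks within 19055 bp. Its lines were 432, 217, 13, 236, 139, 795 and 84 from left to right, so 6 of the 7 stood in the first stretch of the list. The leftmost peak, at chr13:63655865-63656164, met all 3 ventral factors, with centres 25 bp from Nkx2.2, 104 bp from Nkx6.1 and 173 bp from Olig2. The peak of line 13, at chr13:63667604-63667903, met none, with an Olig2 centre 1297 bp away. The peak at chr13:63670453-63670752 met Nkx6.1 alone and that at chr13:63674126-63674425 met Olig2 alone. Of the other peaks without overlap, the one at chr13:63669269-63669568 had an Olig2 centre at 368 bp and the one at chr13:63674620-63674919 at 347 bp, just past the peak width of 300 bp.

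The next cluster, on chromosome 10 at 126776465 to 126779043, was much tighter, with 5 Gli3 peaks within 2579 bp. None of the 5 overlapped a ventral peak, where 36.7% of all autosomal Gli3 peaks did. The nearest ventral centre to any of the 5 was an Nkx2.2 peak 27731 bp away. Its lines ran from 207 to 1709, and these 2 extremes are neighbours with centres 600 bp apart. Of the 5 clusters with 4 peaks, the first 3 by position lay on chromosome 4 at 22414382 to 22425133 and on chromosome 8 at 87356049 to 87371247 and 87493407 to 87502778. Their first lines were 589, 1140 and 692, so none of the 3 reached the first stretch. In them 1, 1 and 2 of the 4 Gli3 peaks overlapped a ventral peak.

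**Figure D3:**
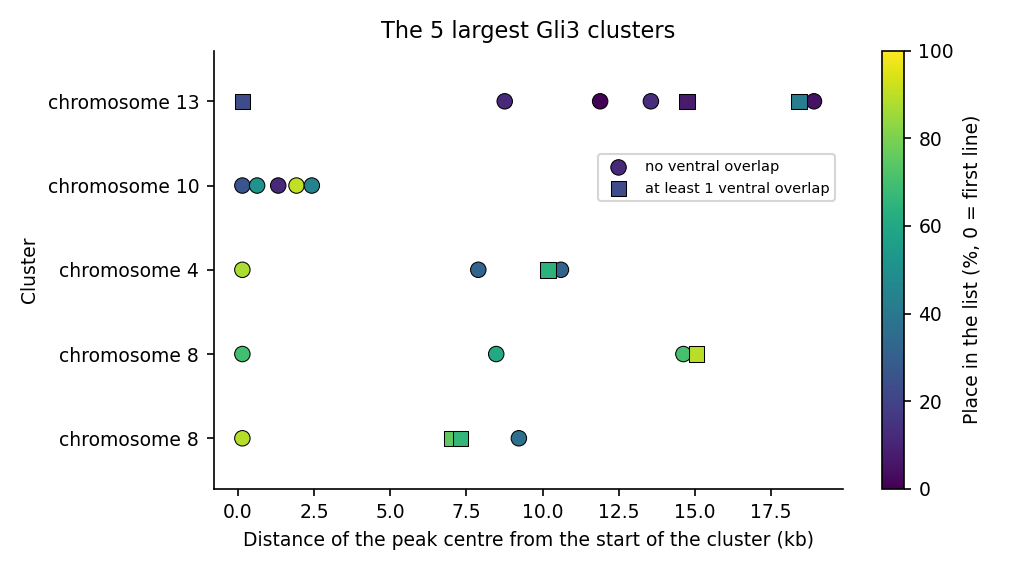
The 5 Gli3 clusters named in the text, one per row, with each peak at its distance from the start of the cluster (kb) and coloured by its place in the Gli3 list (%, 0 is the first line); squares overlap at least 1 ventral peak and circles none. The cluster on chromosome 13 is mostly dark (early lines), and the tight cluster on chromosome 10 has circles only.

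In windows of 100 kb, 1529 of 23985 windows held a Gli3 peak and 245 held several. These 245 windows held 578 peaks, 31.0% of the autosomal list, and 61 windows held 3 or more. The 5 fullest windows began at 63600001 on chromosome 13 (7 peaks), at 52100001 on chromosome 6, 87500001 on chromosome 8 and 126700001 on chromosome 10 (6 peaks each), and at 87300001 on chromosome 8 (5 peaks). In all 3 windows held 5 peaks, and this one is named as the first by position. They differed in their ventral peaks. The window on chromosome 6 held 9 Nkx2.2, 9 Nkx6.1 and 10 Olig2 peaks over its 6 of Gli3, of which 4 met a ventral peak and 1 stood in the first stretch of the list. The window on chromosome 10 held 3 Nkx2.2, 0 Nkx6.1 and 3 Olig2 peaks, and 1 of its 6 Gli3 peaks met one. Neither window on chromosome 8 had a Gli3 peak in the first stretch, their lines beginning at 692 and 1140.

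Windows with more Gli3 peaks also held more ventral peaks. The mean number of Olig2 peaks was 0.437 in windows without Gli3, 1.0 with 1 Gli3 peak, 1.54 with 2 and 2.74 with 3 or more (61 windows). For Nkx2.2 these means were 0.193, 0.694, 1.04 and 1.54, and for Nkx6.1 they were 0.153, 0.354, 0.522 and 0.787. Part of this is the overlapping peaks themselves. With ventral peaks that overlap Gli3 left out, the Olig2 means were still 0.437, 0.792, 1.14 and 2.08, those of Nkx2.2 were 0.193, 0.442, 0.669 and 0.803, and those of Nkx6.1 were 0.153, 0.273, 0.397 and 0.574. Crowded Gli3 windows thus held further ventral peaks that overlapped no Gli3 peak. Such peaks can lie just past the overlap limit, and no wider limit was tried for the windows.

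**Figure D4:**
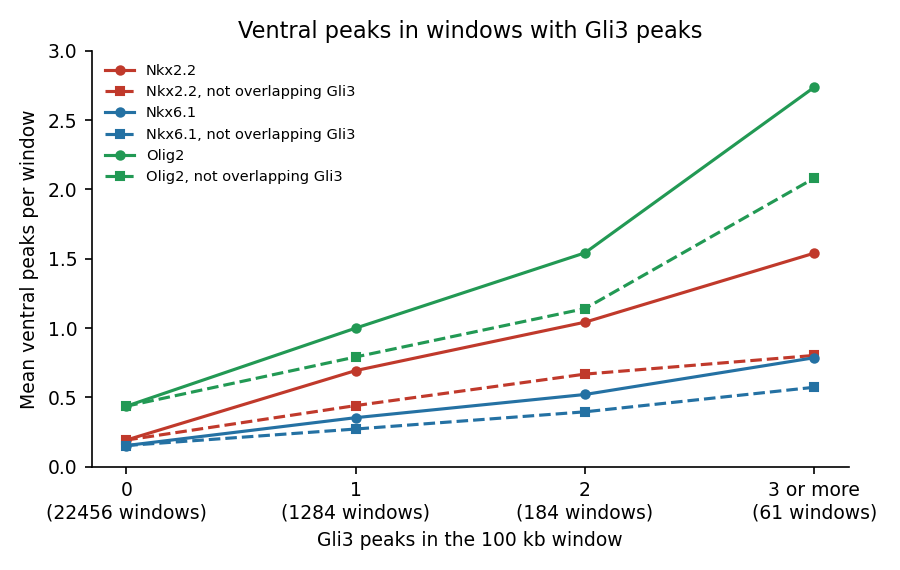
Mean number of Nkx2.2, Nkx6.1 and Olig2 peaks per 100 kb window, by the number of Gli3 peaks in the window; solid lines count all ventral peaks and dashed lines those that overlap no Gli3 peak. All 6 lines go up with the number of Gli3 peaks, for Olig2 from 0.437 to 2.74 (solid) and 2.08 (dashed).

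Chromosome 8 held 268 Gli3 peaks, 2.10 per Mb of the span that the 4 lists cover, against 0.44 to 1.31 per Mb on the 18 other autosomes. Set against the ventral lists, it held 22.4 Gli3 peaks per 100 ventral peaks, where the other autosomes held 4.92 to 11.9 and 8.01 when pooled. The surplus was uneven along the chromosome. In 13 of 14 bins of 10 Mb the ratio was above the pooled value of the other autosomes, and in 10 it was above the highest of them, 11.9. Those 2 values are of whole chromosomes. No such bins were made on the other autosomes, so how often a bin there passes 11.9 is not known. The 3 highest ratios, 33.3 between 70 and 80 Mb, 45.5 between 80 and 90 Mb and 34.1 between 120 and 130 Mb, came from 111 of the 268 peaks. The lowest were 0 in the last bin, which the lists cover only in part, with 36 ventral peaks, and 8.33 between 50 and 60 Mb, with 4 Gli3 peaks. No similar bias stood in the order of the list, where chromosome 8 made up 12.4% (9.75 to 15.8) of the first stretch, 15.1% and 17.6% of the next and 12.5% (9.77 to 15.8) of the last. Gli3 peaks of chromosome 8 met ventral factors as often as others, at 35.8% (30.3 to 41.7) against 36.8% (34.5 to 39.2). Olig2 was met by 17.5% (13.5 to 22.5) of them and by 20.7% (18.8 to 22.8) of the others. With the peaks of chromosome 8 divided into 4 equal stretches of their own, the Olig2 share went from 31.3% (21.5 to 43.2) in the first to 7.46% (3.23 to 16.3) in the last, and on the other autosomes from 33.6% (29.1 to 38.4) to 9.05% (6.61 to 12.3). The decline in Olig2 overlap along the list was thus seen on both. For Nkx2.2 on chromosome 8 the shares were 20.9% (12.9 to 32.1), 37.3%, 14.9% and 19.4% (11.7 to 30.4), with no steady course. A neighbour within 10 kb was found for 24.6% (19.9 to 30.1) of peaks on chromosome 8 and 16.6% (14.8 to 18.5) elsewhere, and 49 of the 245 windows with several peaks lay on it. The number of copies of chromosome 8 in these cells was not tested.

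**Figure D5:**
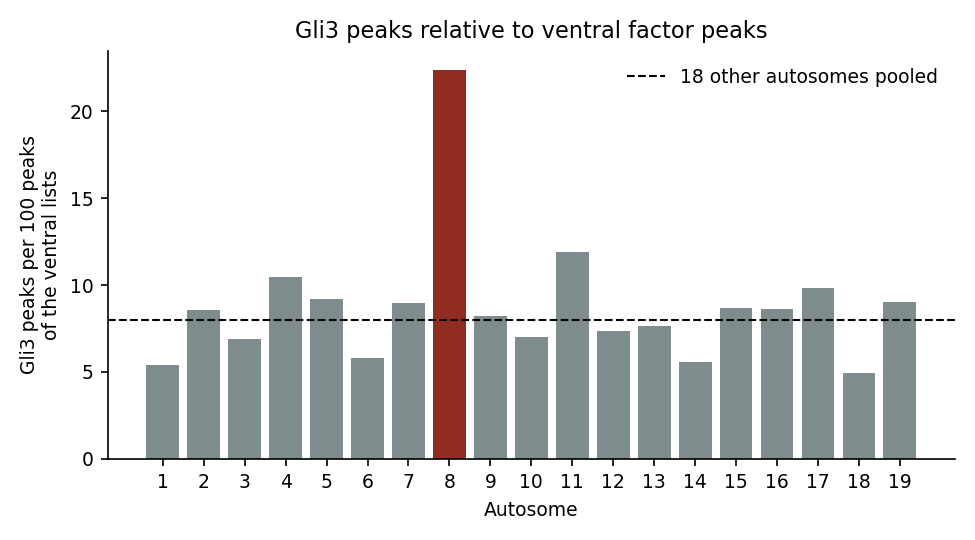
Gli3 peaks per 100 peaks of the 3 ventral lists together, for each autosome; the dashed line is the 18 other autosomes pooled (8.01). Chromosome 8, in red, stands at 22.4, and the next highest, chromosome 11, at 11.9.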

How the data were processed

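Bowtie2 2.2.4, HOMER and the build mm9 are named, per the submitters' processing notes; no source at hand states settings, filters or pooling of replicates. The authors deposited each peak list as 3 columns (chromosome, start, end), with no score and every peak 300 bp wide. Read depth is unknown. The coverage tables of the ventral factors, 1449 columns whose headers name no library, were not used in any result. Ventral line order had been compared with them and went with coverage in some column blocks and not in others. That comparison was left out because no column could be given a sample, so what a later line means in a ventral list is not settled here.

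Sharing at least 1 bp counted as overlap, distances ran between centres, clusters joined centres within 10 kb, and windows of 100 kb started at base 1. Stretches and segments hold equal numbers of autosomal lines. The even spread is the exponential distribution of distances to the nearest of peaks placed independently at the list's mean spacing. Calculations used Python 3.11.15, pandas 2.3.3, numpy 2.4.6 and SciPy 1.17.1, and the list functions were tested on simulated data. With 1 Gli3 library no test was made. Regions named were, by rule, the 5 fullest windows, the 5 largest clusters, both ends of the list, the closest pair and the widest gap. The members and lists were chosen with earlier results of these data known. Gene loci, also planned, were not analysed, as no mm9 annotation was used.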

Additional observations from a re-analysis of the deposited data

How the results depend on the processing

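Each of 12 results was recomputed under alternatives, giving 42 values. Of these, 28 stayed within the counting interval of the reported value or, for counts, within 1.5 times of it. Only the differences between the first and last part of the list have a direction, and they stayed positive under each alternative. The other results are counts, shares or a median and have no direction to change. The share of peaks with a neighbour within 10 kb was 15.6% with overlapping peaks joined and 12.5% among the first 944 lines, against 17.7%. The median distance to the nearest Gli3 peak was 166.0 kb without chromosome 8 and 342.2 kb among the first 944 lines, against 139.8 kb. Chaining within 50 kb gave 232 clusters, 67 of them with 3 or more peaks, against 146 and 27. Windows of 50 kb gave 39 with 3 or more peaks, against 61. Counting centres within 100 bp, 14.9% of Gli3 peaks met Nkx2.2, 4.67% Nkx6.1 and 12.2% Olig2; within 1000 bp the shares were 27.0%, 9.40% and 25.6%. The reported shares at 1 bp were 22.8%, 7.41% and 20.2%. Between the first and last of 10 segments in place of 4 stretches, the Olig2 difference was 34.2 points against 25.7. On chromosome 8 alone, an alternative chosen after seeing the data, the first stretch exceeded the last by 23.9 points in Olig2 overlap. The excess was 8.96 points in Nkx6.1 overlap and 1.49 points in Nkx2.2 overlap. The Nkx2.2 value rests on 14 against 13 of 67 peaks. With 1 Gli3 library no replicate could be left out. No paired analysis was possible because the Gli3 list rests on a single library and the results come from no test. No stricter threshold could be set, since the lists carry no score.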
